A study of Mus musculus with 25 samples.

Results

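The genes described are the nuclear-encoded genes of oxidative phosphorylation (OXPHOS), defined by their symbols: Ndufa, Ndufb, Ndufc, Ndufs and Ndufv genes with a number, Sdha to Sdhd, Uqcr genes, Cox4i1 and the Cox5 to Cox8 genes, and Atp5 genes, with assembly factors (Ndufaf) and symbols marked -ps as pseudogenes dropped. Cox6c2, which has no such mark, was kept though it is annotated as a processed pseudogene. The rule found 83 of the 47729 genes in the table of bulk counts, of which 36 belong to complex I, 4 to complex II, 8 to complex III, 18 to complex IV and 17 to complex V. The symbol rule uses no expression value, but the gene set was proposed with earlier results of these data known.

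Oxidative phosphorylation takes place at the inner mitochondrial membrane. Complexes I and II pass electrons from NADH and succinate to ubiquinone, complex III passes them to cytochrome c, complex IV reduces oxygen, and complex V uses the resulting proton gradient to make ATP. Most subunits are encoded in the nucleus and a few in mitochondrial DNA, and several subunits of complex IV exist as a widely expressed form and a form known from muscle or testis.

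Lin- lung cells, which lacked CD45, CD31 and CD326 in the sort and so were enriched for mesenchymal cells, were taken from naive mice and from mice at 3 and 6 weeks after intratracheal bleomycin, which injures the lung and leads to fibrosis. All groups were Col1a1-Cre-ERT2;Fas fl/fl mice, the naive group by the account of the study since its labels say only control, and in these mice the Col1a1 promoter drives a Cre recombinase that needs tamoxifen; bleomycin mice given tamoxifen are called Fas-/- and those given corn oil Fas+/+, so loss of the death receptor Fas and tamoxifen itself cannot be told apart. Bulk RNA-seq holds 20 libraries, 4 in each of the 5 groups naive, 3wk Fas+/+, 3wk Fas-/-, 6wk Fas+/+ and 6wk Fas-/-. Single-cell RNA-seq holds 5 libraries, 1 per group, each from cells of pooled mice. Fas itself stood at 21.1 to 23.9 CPM (read counts scaled to the library total after adjustment by its TMM factor from edgeR) in naive libraries, 33.9 to 57.7 at 3wk Fas+/+, 34.4 to 64.8 at 3wk Fas-/-, 26.1 to 39.7 at 6wk Fas+/+ and 35.5 to 46.5 at 6wk Fas-/-. It was thus no lower in the libraries labelled Fas-/-, with medians of 38.8 against 36.2 at 3 weeks and 39.6 against 29.9 at 6 weeks, and because the counts do not separate its exons these values do not check the deletion. The study itself reports from its single cells that fewer Fas-/- than Fas+/+ cells expressed the deleted exon at both times, while some Fas-/- cells still did.

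The bulk libraries held 11819700 to 25189096 counts, and the members took 0.346% to 0.396% of them in each library. Defining markers of other cells moved with the groups: 10 endothelial markers summed to 202 to 544 CPM in naive libraries, 3292 to 12120 at 3wk Fas+/+, 810 to 10750 at 3wk Fas-/-, 607 to 2369 at 6wk Fas+/+ and 135 to 3400 at 6wk Fas-/-. Erythroid markers, led by globin genes, summed to 2992 to 9623 CPM in naive libraries and to 18.5 to 255 in the others. The lipofibroblast markers, 8 genes, summed to 9195 to 10830 CPM in naive libraries, 2998 to 5225 at 3wk Fas+/+, 5108 to 6634 at 3wk Fas-/-, 6703 to 8491 at 6wk Fas+/+ and 7277 to 8896 at 6wk Fas-/-, so no bleomycin library reached the naive ones. Profibrotic fibroblast markers had means of 16440, 43440, 39680, 17390 and 24330 CPM, and proliferation markers of 29.96, 137, 80.5, 15.6 and 10.2, in the order naive, 3wk Fas+/+, 3wk Fas-/-, 6wk Fas+/+ and 6wk Fas-/-. In bulk samples, fewer cells of a type and less RNA per cell cannot be told apart.

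The 4 members with the largest changes among those called at 3wk Fas+/+ were Cox6b2, Cox8b, Cox5a and Atp5g2, and the 250 bases before their transcription start are shown because members that move together, or against each other, can be read beside their promoters. Cox6b2 lies on chromosome 7 (GRCm38, 4751792 to 4753094, minus strand), Cox8b on chromosome 7 (140898945 to 140900446, minus strand), Cox5a on chromosome 9 (57521274 to 57532426, plus strand) and Atp5g2 on chromosome 15 (102662864 to 102672352, minus strand). The promoter windows, from RefSeq on GRCm38.p6 and given on the strand of the gene, are chr7:4753095-4753344, chr7:140900447-140900696, chr9:57520982-57521231 and chr15:102671048-102671297 in the same order. The gene spans and the RefSeq starts are separate annotations: the Atp5g2 window lies inside the span given for the gene, before a RefSeq start that lies within that span, and the Cox5a window ends shortly before the span. Capitals mark matches on either strand to a searched motif.
Cox6b2: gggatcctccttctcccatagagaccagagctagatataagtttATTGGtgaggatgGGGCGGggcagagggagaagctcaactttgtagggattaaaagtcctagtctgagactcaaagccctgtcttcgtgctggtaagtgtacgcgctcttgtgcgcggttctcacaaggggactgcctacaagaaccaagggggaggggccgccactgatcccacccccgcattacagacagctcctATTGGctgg
Cox8b: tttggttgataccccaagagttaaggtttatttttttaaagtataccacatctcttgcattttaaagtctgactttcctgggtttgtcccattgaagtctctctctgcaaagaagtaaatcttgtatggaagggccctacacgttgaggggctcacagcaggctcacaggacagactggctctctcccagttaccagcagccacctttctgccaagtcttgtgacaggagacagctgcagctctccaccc
Cox5a: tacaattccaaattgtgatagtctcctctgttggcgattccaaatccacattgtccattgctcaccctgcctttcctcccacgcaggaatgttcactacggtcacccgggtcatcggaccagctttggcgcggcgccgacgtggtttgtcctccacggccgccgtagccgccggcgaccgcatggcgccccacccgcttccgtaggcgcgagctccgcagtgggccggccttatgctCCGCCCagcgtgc
Atp5g2: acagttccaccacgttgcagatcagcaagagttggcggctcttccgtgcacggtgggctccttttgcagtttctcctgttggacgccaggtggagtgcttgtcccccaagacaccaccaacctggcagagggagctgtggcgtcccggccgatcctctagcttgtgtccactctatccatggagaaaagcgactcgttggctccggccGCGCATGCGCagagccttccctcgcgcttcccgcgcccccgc

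The capitals in Cox6b2 are an Sp1 box and a pair of CCAAT boxes, which appear as their reverse complement, and those in Cox5a are an Sp1 box. In Atp5g2 they are a palindromic core site of NRF1, a transcription factor known for binding promoters of respiratory genes, which matched in overlapping placements on both strands. Cox8b had no match to any of the 6 motifs. RefSeq windows were matched for 66 of the 83 members, which have 71 starts, and for 32851 starts in all. The NRF1 core GCGCANGCG was in 21.1% of the members' windows and 5.16% of all windows. The other motifs were in shares closer to the background, with the ETS core CCGGAAGT in 4.23% against 2.88%, the Sp1 box GGGCGG in 32.4% against 32.7%, the TATA box TATAAA in 9.86% against 12.4%, the estrogen-related receptor site TCAAGGTCA in 1.41% against 0.387% and CCAAT in 42.3% against 33.8%. The members' windows were also richer in G and C, with a median of 56.0% against 52.4%. A match is a string of letters and does not show binding.

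To ask whether the respiratory chain genes differed after bleomycin, each group was compared with naive mice. The bleomycin mice also had the instillation itself and injections of corn oil or tamoxifen, which the study does not report for naive mice. These cannot be told apart from bleomycin. The quasi-likelihood test of edgeR was run on all 15773 genes that passed its filter on low counts, which 78 of the 83 members did. The other 5 are isoforms known from muscle or testis, Cox6a2 (69 counts over the 20 libraries), Cox7a1 (119), Cox7b2 (14) and Cox8c (0), and the annotated pseudogene Cox6c2 (5). Calls were made at an adjusted p (Benjamini-Hochberg) of 0.05. At 3 weeks in Fas+/+ mice 13 members were called higher and 6 lower, against 22.1% of all genes called higher and 19.2% called lower. In Fas-/- mice at 3 weeks 4 were called higher and 6 lower, against 17.2% and 14.8% of all genes. The balance of higher over lower calls among the members at 3wk Fas+/+ was not stable. Under upper quartile scaling 4 were higher and 8 lower, against 18.8% and 23.1% of all genes. With no filter on low counts 4 were higher and 6 lower, against 11.6% and 9.09%. At 6 weeks no member was called in either genotype, against 3.57% and 1.74% of all genes in Fas+/+ mice and 3.66% and 2.81% in Fas-/- mice. Without adjustment, at a p of 0.05, 6 members were higher and 2 lower at 6wk Fas+/+, against 10.9% and 8.65% of all genes, and 2 were higher and 4 lower at 6wk Fas-/-, against 11.3% and 9.64%. DESeq2 called 1 member in each, against 5.46% of all genes higher and 3.6% lower at 6wk Fas+/+ and 5.25% and 4.85% at 6wk Fas-/-. All 4 comparisons share the 4 naive libraries.

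Most members differed little from naive mice. Median log2 fold changes over the members were 0.07, 0.05, 0.02 and -0.01 in the order of groups above, and the median over all genes was between 0.00 and 0.02. At 3 weeks in Fas+/+ mice 3 members (3.85%) moved by 0.5 log2 units or more, up or down, against 35.4% of all genes tested, and in Fas-/- mice 2 (2.56%) did, against 31.1%. The 95% interval of the change lay within 0.5 of 0 for 67 of the 78 members (85.9%) at 3wk Fas+/+ and for 75 (96.2%) at 6wk Fas+/+. Of all genes tested, 35.7% and 49.3% did so. The members' intervals were also narrower, with a median half-width of 0.175 at 3wk Fas+/+ against 0.327 over all genes tested. How much of these contrasts comes from this precision was not tested. The plot of log2 fold changes by complex shows the narrow band of changes and the few genes outside it.

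**Figure D1:**
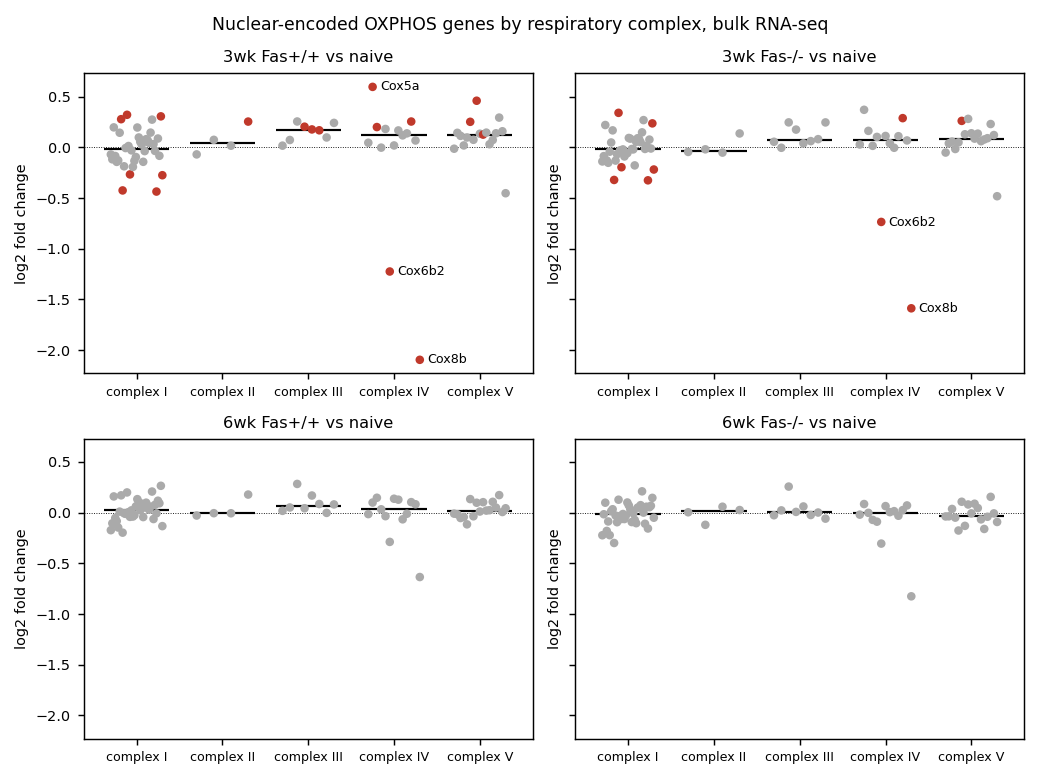
Log2 fold change from naive mice (y axis) of each tested member in bulk RNA-seq, by respiratory complex (x axis), in 4 panels for the bleomycin groups; red points passed an adjusted p of 0.05, grey points did not, and black bars are medians. Most points lie near 0, and Cox6b2 and Cox8b lie far below the other genes at 3 weeks.

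The largest changes were in 2 tissue-specific isoforms of complex IV subunits. Cox6b2, the form of subunit 6B known from testis, was at 36.2, 32.9, 37.1 and 28.4 CPM in the naive libraries, at 15.99, 15.71, 11.79 and 13.99 at 3wk Fas+/+, and at 20.1, 20.3, 21.9 and 18.7 at 3wk Fas-/-. At 6 weeks it was at 35.6, 27.3, 25.6 and 21.8 in Fas+/+ mice and at 24.6, 24.4, 32.6 and 27.4 in Fas-/- mice. Every library of either genotype at 3 weeks lay below every naive library, whereas the 6-week libraries overlapped with naive ones. The log2 fold change from naive mice was -1.22 (SE 0.14, edgeR adjusted p = 6.19e-06) at 3wk Fas+/+ and -0.74 (SE 0.138, adjusted p = 0.000798) at 3wk Fas-/-. Cox6b1, the widely expressed form of the same subunit, was not called in either, at 0.18 (edgeR adjusted p = 0.0554) and 0.10 (adjusted p = 0.297).

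Cox8b, the form of subunit 8 known from heart, skeletal muscle and brown fat, was a low gene at 2.15, 2.20, 2.58 and 3.72 CPM in naive libraries. It was at 1.08, 0.35, 0.44 and 0.56 CPM at 3wk Fas+/+ and at 1.35, 0.66, 0.73 and 0.82 at 3wk Fas-/-. Neither group overlapped with naive mice, and the fall was -2.10 on the log2 scale (SE 0.339, edgeR adjusted p = 0.000145) and -1.59 (SE 0.324, adjusted p = 0.00155). Its widely expressed counterpart Cox8a did not pass the test, at 0.07 in both comparisons (edgeR adjusted p = 0.518 and 0.538). Cardiac muscle markers summed to 30.3 to 51.6 CPM in naive libraries, 21.01 to 26.15 at 3wk Fas+/+ and 17.9 to 29.6 at 3wk Fas-/-, with Nppa at 0 in 14 libraries and Ckmt2 in 13. Of the 7 tested, 3 were called lower in each comparison, against 19.2% and 14.8% of all genes. Brown adipocyte markers summed to 0.62 to 4.03 CPM in naive libraries and at most 1.51 elsewhere, with Ucp1 at 0 in 18 libraries. The part of these cells, and of the lower lipofibroblast and erythroid markers, in the fall of Cox6b2 and Cox8b was not tested.

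**Figure D2:**
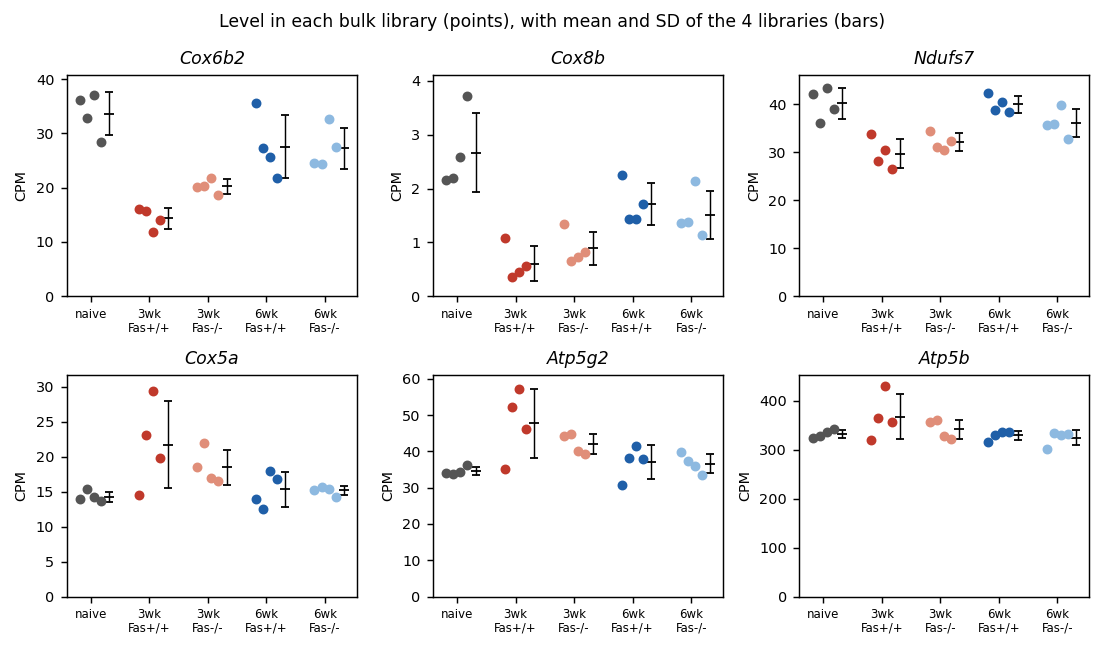
CPM (y axis) of 6 members in each of the 20 bulk libraries (points) by group (x axis), with the mean and SD of the 4 libraries as bars. Cox6b2, Cox8b and Ndufs7 are low in the 3-week groups, Cox5a and Atp5g2 are high in 3 of the 4 3wk Fas+/+ libraries, and Atp5b was not called.

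Complex I, the NADH dehydrogenase, held called members in both directions. Its median change at 3wk Fas+/+ was -0.02, with 3 of 36 members called higher and 4 lower, against the 22.1% and 19.2% of all genes given above. The 3 higher include Ndufa4 (0.28), counted in complex I here by its name though by now assigned to complex IV. Ndufs7, an iron-sulfur subunit next to the ubiquinone site, was at 42.2, 36.1, 43.4 and 39.1 CPM in naive libraries and at 33.7, 28.2, 30.4 and 26.5 at 3wk Fas+/+, without overlap. It fell by 0.44 on the log2 scale in Fas+/+ mice (SE 0.0809, edgeR adjusted p = 0.00047) and by 0.32 in Fas-/- mice (SE 0.0806, adjusted p = 0.00579), where the libraries were at 34.49, 30.99, 30.42 and 32.41. The accessory subunits Ndufb10, Ndufv3 and Ndufa5 fell with it, by 0.27, 0.27 and 0.42 in Fas+/+ mice (edgeR adjusted p = 0.000346, 0.00147 and 0.00238) and by 0.20, 0.22 and 0.32 in Fas-/- mice (adjusted p = 0.00512, 0.00981 and 0.0182).

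In the same complex Ndufv2, a core subunit of the NADH-binding module, rose by 0.31 in Fas+/+ mice (edgeR adjusted p = 0.00501) and by 0.24 in Fas-/- mice (adjusted p = 0.0288). Ndufa8, an accessory subunit, was at 24.7, 25.9, 24.3 and 27.4 CPM in naive libraries and at 30.2, 35.1, 32 and 30.5 at 3wk Fas+/+. These groups did not overlap, and it rose by 0.32 in Fas+/+ mice (SE 0.086, edgeR adjusted p = 0.00639) and by 0.34 in Fas-/- mice (SE 0.0858, adjusted p = 0.00635). A pair of core subunits named for their role alone, Ndufs1 and Ndufv1, were at 0.07 and -0.08 at 3wk Fas+/+ and did not pass the test (edgeR adjusted p = 0.546 and 0.367).

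In complex II, the succinate dehydrogenase, the membrane anchor Sdhd rose by 0.25 at 3wk Fas+/+ (edgeR adjusted p = 0.0225). Its catalytic subunits Sdha and Sdhb were at -0.07 and 0.07 and were not called. In complex III all 8 members had a positive change at 3wk Fas+/+, with a median of 0.17 and 3 called, against 22.1% of all genes called higher: the core proteins Uqcrc1 (0.20, edgeR adjusted p = 0.0238) and Uqcrc2 (0.18, adjusted p = 0.0345) and the Rieske iron-sulfur protein Uqcrfs1 (0.17, adjusted p = 0.034). In Fas-/- mice none of the 8 was called at 3 weeks by edgeR, with a median of 0.07 and 2 higher at an unadjusted p of 0.05, against 23.1% of all genes.

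In complex IV, cytochrome c oxidase, the median change of the 13 tested members was 0.12 at 3wk Fas+/+. Cox5a, a structural subunit that faces the matrix, was at 13.96, 15.33, 14.18 and 13.72 CPM in naive libraries and at 14.5, 23.1, 29.4 and 19.8 at 3wk Fas+/+. The first of these libraries lay at the naive level and the others above it, and the log2 fold change was 0.60 (SE 0.161, edgeR adjusted p = 0.00668), with an exact permutation p of 0.0571. At 3wk Fas-/- the libraries were at 18.56, 21.93, 16.99 and 16.46, all above naive mice, and the change of 0.37 was not called by edgeR. Cox7c rose in both genotypes, by 0.26 (edgeR adjusted p = 0.0252) and 0.29 (adjusted p = 0.0172), and Cox5b by 0.20 in Fas+/+ mice (adjusted p = 0.0443). Cox4i1, which anchors the assembly of the complex, was at 0.05 and 0.03 and was not called, nor were the widely expressed Cox6a1, Cox6c, Cox7a2, Cox7a2l and Cox7b, none above 0.17 at 3wk Fas+/+.

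In complex V, the ATP synthase, 15 of 17 members had a positive change at 3wk Fas+/+, with a median of 0.13 and 3 called higher, again against 22.1% of all genes. Atp5g2, 1 of 3 genes that encode the same ring subunit, was at 34.1, 33.9, 34.3 and 36.1 CPM in naive libraries and at 35.1, 52.1, 57.2 and 46.3 at 3wk Fas+/+. As for Cox5a, the first library was at the naive level, and the change was 0.46 (SE 0.117, edgeR adjusted p = 0.00454), with an exact permutation p of 0.0571. The other genes of the ring, Atp5g1 and Atp5g3, were at 0.08 and 0.14 and were not called (edgeR adjusted p = 0.659 and 0.272). The stalk subunits Atp5f1 and Atp5h rose by 0.25 (edgeR adjusted p = 0.0368) and 0.13 (adjusted p = 0.0219), and the catalytic head subunits Atp5a1 and Atp5b were at -0.01 and 0.14 and were not called. Atp5s, grouped here by its symbol, was at -0.45 (edgeR adjusted p = 0.057) and, in Fas-/- mice, at -0.48 (adjusted p = 0.0521). In Fas-/- mice Atp5f1 alone was called in this complex, at 0.26 (edgeR adjusted p = 0.0389).

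The library that stood at the naive level for Cox5a and Atp5g2 was also the one with the most endothelial marker RNA, 12120 CPM against 3292 to 4177 in the other 3wk Fas+/+ libraries. It was also lowest in profibrotic fibroblast markers, at 11910 CPM against 49510 to 60200 in the others of its group and 13300 to 18280 in naive libraries. Its proliferation markers were at 22.6 CPM against 129 to 216 in the others of its group. Which of these goes with its levels of Cox5a and Atp5g2 was not tested. Without this library, 27 members were called higher and 7 lower at 3wk Fas+/+, against 23.3% and 22.5% of all genes. Without the library highest in endothelial markers in each of the 4 bleomycin groups, the counts were again 27 and 7, against 26.1% and 24.3% of all genes, and at 3wk Fas-/- 10 and 6, against 20.3% and 18.8%. With the endothelial markers as a covariate 8 members were called higher and 4 lower at 3wk Fas+/+, against 13.9% and 11.5% of all genes. Leaving out naive replicate 1 left 4 higher and 6 lower, against 17.9% and 18.3%, and leaving out 3wk Fas+/+ replicate 3 gave the same counts, against 18.8% and 15.8%.

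The fate of these differences was followed by comparing 6 with 3 weeks within each genotype. In Fas+/+ mice 4 members were higher and 4 lower at 6 weeks, against 12% and 10.9% of all genes. Those higher were Cox6b2 (0.94, SE 0.14, edgeR adjusted p = 0.000267), Ndufs7 (0.43, adjusted p = 0.00134), Ndufb10 (0.23, adjusted p = 0.00282) and Cox8b (1.46, adjusted p = 0.00531), and in all of these the libraries of 3 and 6 weeks did not overlap. Those lower were Atp5g2 (-0.36, adjusted p = 0.0327), Cox5a (-0.50, adjusted p = 0.033), Cox6b1 (-0.22, adjusted p = 0.0417) and Cox7a2l (-0.18, adjusted p = 0.0499), with overlap in each. Overlap describes the same libraries as the edgeR test and is no separate support. The share of all genes without overlap is not given here. Of these 8 calls, the 4 that were higher held under the 16 other fits, but with a log2 change of at least 0.5 required Cox6b2 and Cox8b alone remained, against 7.15% and 6.6% of all genes called higher and lower. In Fas-/- mice edgeR called no member, against 4.48% and 4.54% of all genes; without adjustment, at a p of 0.05, 5 were higher and 8 lower, against 12.6% and 13% of all genes, and DESeq2 called 2, against 6.29% and 6.97%. Cox6b2 came closest, at 0.43 (SE 0.138, edgeR adjusted p = 0.0582), without overlap. These comparisons share the 3-week libraries with those above.

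To ask whether the deletion changed these genes, Fas-/- mice were compared with Fas+/+ mice at each time. No member was called by edgeR at 3 weeks, against 0.165% and 0.00634% of all genes, at 6 weeks, against 0.0254% in each direction, or for the interaction of genotype and time, against 0% and 0.00634%. DESeq2 called no member either. It called 143 genes higher and 24 lower of 14480 at 3 weeks, 50 and 120 of 15703 at 6 weeks, and 20 and 82 of 15397 for the interaction. With an unadjusted p of 0.05 in edgeR the counts of members in the order higher, lower were 1 and 1 at 3 weeks, against 5.93% and 2.69% of all genes, 0 and 1 at 6 weeks, against 3.92% and 4.15%, and 1 and 2 for the interaction, against 2.65% and 5.02%. The 95% interval lay within 0.5 of 0 on the log2 scale for 75 of 78 members (96.2%) at both times. Of all genes, whose intervals were wider, 51.7% did so at 3 weeks and 53.9% at 6 weeks. Cox6b2 had the smallest p at 3 weeks: its Fas-/- libraries, at 18.7 to 21.9 CPM, all lay above the Fas+/+ libraries, at 11.79 to 15.99, with a difference of 0.49 (95% interval 0.20 to 0.78, edgeR adjusted p = 0.201), and at 6 weeks the difference was -0.02. Its interaction was -0.51 (SE 0.195, edgeR adjusted p = 0.504). The next smallest p at 3 weeks were those of Uqcrc2 (-0.14, adjusted p = 0.567) and Cox7a2l (-0.12, adjusted p = 0.646), at 6 weeks of Atp5k, Cox5b and Ndufs4 (-0.27, -0.15 and -0.21, edgeR adjusted p = 0.584, 0.685 and 0.711), and for the interaction of Ndufs7 and Cox7a2l (-0.26 and 0.20, adjusted p = 0.615 and 0.631). Without the libraries highest in endothelial markers 1 member was called at 3 weeks, against 3.42% of all genes called higher and 4.71% lower.

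Other genes of the pathway were set beside the members from lists, whose counts stand against the 22.1% and 19.2% of all genes called higher and lower at 3wk Fas+/+ and the 17.2% and 14.8% at 3wk Fas-/-. Of 11 mitochondrially encoded subunits 3 were called lower at 3wk Fas+/+ and none higher (median -0.10): mt-Nd2 (-0.32, edgeR adjusted p = 0.0134), mt-Nd4 (-0.22, adjusted p = 0.0258) and mt-Co2 (-0.35, adjusted p = 0.023). At 3wk Fas-/- 2 were, mt-Nd2 (-0.32) and mt-Nd4 (-0.28). Of 45 assembly factors 3 were higher and 4 lower at 3wk Fas+/+ and 2 and 2 at 3wk Fas-/-, and of 18 genes of the TCA cycle 2 and 3, and 1 and 3. Of 14 regulators of mitochondrial biogenesis 5 were higher and 1 lower at 3wk Fas+/+, among them Nrf1 (0.31, edgeR adjusted p = 0.0339) and Esrra, an estrogen-related receptor (0.38, adjusted p = 0.00144), and at 3wk Fas-/- 4 were higher. Of 17 glycolytic genes 10 were higher and 3 lower at 3wk Fas+/+, with a median of 0.41, and 2 and 3 at 3wk Fas-/-, with a median of 0.25. Ldha, which makes lactate, rose by 0.81 in Fas+/+ mice (edgeR adjusted p = 0.00208) and by 0.65 in Fas-/- mice (adjusted p = 0.0126), and Hk2, which traps glucose in the cell, by 1.86 (adjusted p = 0.00465) and 1.84 (adjusted p = 0.0073). Ldha and Hk2 were the only 2 glycolytic genes called higher at 3wk Fas-/-, and the 3 called lower there are not named here.

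Of 10 related genes that the symbol rule leaves out, 1 was called higher and 3 lower in each 3-week comparison. The electron carrier Cycs rose by 0.46 at 3wk Fas+/+ (edgeR adjusted p = 0.00229) and by 0.37 at 3wk Fas-/- (adjusted p = 0.0125). Cox4i2, the alternative form of Cox4i1, fell by 0.83 (adjusted p = 0.00749) and by 0.60 (adjusted p = 0.0498). Ndufa4l2, a paralog of Ndufa4 known for its induction in hypoxia, fell by 0.76 (adjusted p = 0.00567) and by 0.82 (adjusted p = 0.00511). Etfa, a subunit of the flavoprotein that passes electrons from fatty acid oxidation, fell by 0.28 (edgeR adjusted p = 0.0126) and by 0.24 (adjusted p = 0.0397). The pericyte markers, of which Cox4i2 is 1, were called lower for 6 of 7 genes at 3wk Fas+/+ and for 5 of 7 at 3wk Fas-/-, against 19.2% and 14.8% of all genes.

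Single cells were used to see which cells carry the members, without a test because each group has 1 library. Of 13900 barcodes 12059 cells passed the filters, 603 of them naive, and 1540 of these cells, 350 of them naive, carried a barcode that another library also holds. Profibrotic markers ran against the time on the labels: Spp1 was at 1.69 UMIs per 10000 in the library labelled naive, 2.86 and 4.38 in those labelled 3wk Fas+/+ and Fas-/-, and 38.7 and 78.2 in those labelled 6wk, whereas in bulk its group means were 57.3, 1780, 1710, 160 and 157 CPM. No direction over time is therefore read from these libraries. The OXPHOS genes were left out of the genes used for clustering. The 22 clusters gave 11 classes named from marker genes, and 3 clusters, among them the largest, led by Saa3 and Lcn2, stayed unnamed. Of the members 81 are in the matrices.

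The members together took 1.60%, 1.56%, 1.55%, 1.54% and 1.53% of UMIs in the libraries labelled naive, 3wk Fas+/+, 3wk Fas-/-, 6wk Fas+/+ and 6wk Fas-/-. Without the shared barcodes these shares were 1.43%, 1.54%, 1.54%, 1.53% and 1.52%, and the naive library was then the lowest. Between classes the spread was wider, for shares that leave out Cox4i2 and Ndufa4l2, paralogs outside the symbol rule that are high in pericyte-like cells. The lowest share of a named class was in pericyte-like cells (1.37%), followed by Col14a1 fibroblast-like (1.44%), lipofibroblast-like (1.47%), endothelial-like (1.501%), epithelial-like (1.56%), and airway smooth muscle or ductal myofibroblast-like and profibrotic fibroblast-like cells (both 1.58%). Lymphatic endothelial-like cells held 1.63%, vascular smooth muscle-like cells 1.90%, mesothelial-like cells 1.95% and erythroid-like cells, at a median of 1206 UMIs per cell, 2.04%. This order mixes clusters: of the 2 pericyte-like clusters 1 held 1.491% at a median of 6291 UMIs per cell, above the Col14a1 fibroblast-like and lipofibroblast-like classes, and the other 1.09% at a median of 2169 UMIs and with 7.93% mitochondrial UMIs. The 3 lipofibroblast-like clusters held 1.365%, 1.529% and 1.82%, the last at a median of 1269 UMIs. An unnamed cluster of 553 cells was lowest of all, at 0.466%, with 10.7% mitochondrial UMIs. The erythroid-like cells of the library labelled naive, 38 in number, were at 1.18% and those of the others at 2.04% to 2.18%. Of UMIs outside mitochondrial, ribosomal protein and globin genes, they were at 2.99% and those of the others at 2.60% to 3.09%. On that base Col14a1 fibroblast-like cells (1.722%) lay above endothelial-like (1.715%) and lipofibroblast-like cells (1.693%). Pericyte-like cells (1.534%) stayed lowest of the named classes, again without Cox4i2 and Ndufa4l2. Counting these paralogs, at the levels given below, pericyte-like cells would not be the lowest on either base.

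**Figure D3:**
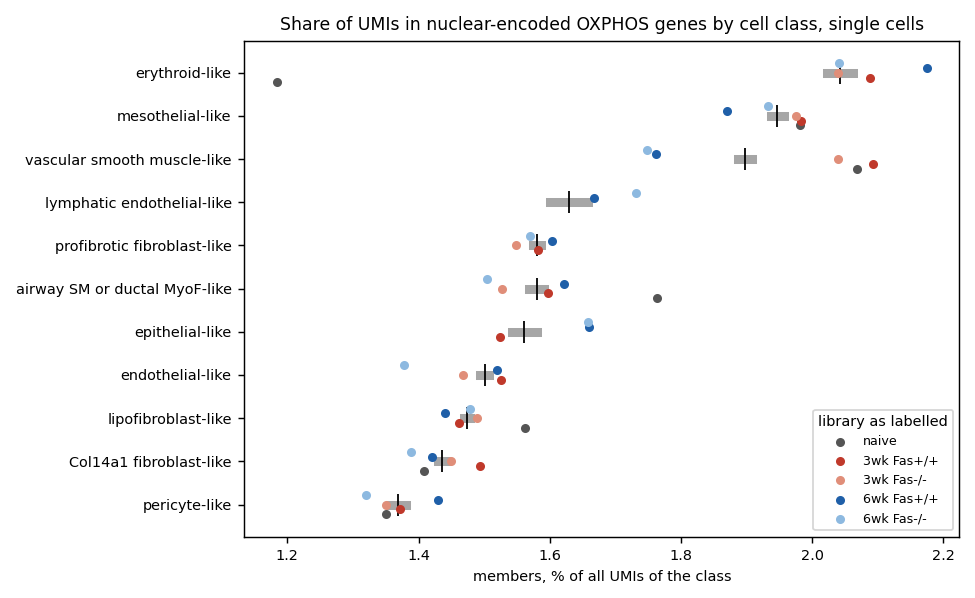
Members' UMIs as a percentage of all UMIs (x axis) for each single-cell class (y axis), with 1 point per library that holds at least 20 cells of the class, a tick for all libraries together and a grey bar for its exact Poisson interval (95%, counting error only). Pericyte-like cells are the lowest named class with all libraries together, for members that leave out Cox4i2 and Ndufa4l2. Counting these paralogs, pericyte-like cells would not be the lowest. Vascular smooth muscle-like and mesothelial-like cells lie above the fibroblast-like classes in every library.

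The mural classes differed. Pericyte-like cells held 1.32% to 1.43% in the 5 libraries and vascular smooth muscle-like cells 1.75% to 2.09%, so the classes did not overlap, nor did the deeper pericyte-like cluster alone, at 1.43% to 1.515%. By complex, vascular smooth muscle-like and pericyte-like cells held 0.655% and 0.490% of UMIs in complex I, 0.197% and 0.145% in complex III, 0.499% and 0.323% in complex IV, and 0.503% and 0.373% in complex V. Complex I here includes Ndufa4, which was low in pericyte-like cells. These shares leave out Cox4i2 and Ndufa4l2, which the symbol rule does not include and which are higher in pericyte-like cells, as given below. Counting them would narrow the gap in the total, and Cox4i2 alone would reverse the order in complex IV. Mesothelial-like cells held 1.87% to 1.98% in the 5 libraries. Without the shared barcodes pericyte-like cells were at 1.36%, vascular smooth muscle-like cells at 1.88% and mesothelial-like cells at 1.93%.

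Most members varied little between classes. Over the 78 members with at least 100 UMIs, the SD of the log2 level across the 11 classes had a median of 0.27 and was above 0.5 for 4: Cox6b2 (1.68), Cox8b (1.64), Ndufa4 (1.32) and Cox7a1 (0.90). The following values are UMIs per 10000 UMIs of a class. Cox6b2 was at 1.39 in lipofibroblast-like cells (95% Poisson interval 1.34 to 1.44), 0.89 in Col14a1 fibroblast-like, 0.31 in profibrotic fibroblast-like (0.28 to 0.33) and 0.06 in endothelial-like cells. It was at 1.22 to 1.81 in the lipofibroblast-like cells of all 5 libraries and at 0.25 to 0.64 in the profibrotic fibroblast-like cells of the 4 libraries that hold enough of them, with no overlap. Mesothelial-like cells were at 1.07, erythroid-like cells at 1.31, and pericyte-like and vascular smooth muscle-like cells at 0.12 and 0.13. Cells of the unnamed clusters were together at 1.46, above the lipofibroblast-like class. The largest cluster, unnamed and led by Saa3 and Lcn2, was at 1.54, and the other unnamed clusters at 0.71 and 0.14. The Col14a1 fibroblast-like clusters were at 0.58 and 1.55, and the lipofibroblast-like ones at 1.125, 1.55 and 2.03. Cox6b2 had a UMI in 52.99% of lipofibroblast-like cells (median 9083.5 UMIs), 36.5% of mesothelial-like, 22.98% of erythroid-like (median 1206 UMIs) and 2.36% of endothelial-like cells (median 4634.5 UMIs). As a rough guide to free RNA, the 8 lipofibroblast markers together were at 124 in lipofibroblast-like, 31.7 in erythroid-like, 5.66 in mesothelial-like and 4.08 in endothelial-like cells. The erythroid-like cluster also had Igkc, Jchain, Lyz2 and Krt15, genes of other cell types, among its leading genes. Its levels of Cox6b2 and Cox8b are therefore not read as expression by erythroid cells. Whether they come from these cells, from other cells or from free RNA was not tested.

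Cox8b was at 0.27 in lipofibroblast-like cells, with 0.16 to 0.54 in the 5 libraries, and at 0.01 in both profibrotic fibroblast-like and endothelial-like cells. Erythroid-like cells were at 0.19, and no UMI was found in epithelial-like cells, where a count of 0 allows up to 0.018. Among the named classes lipofibroblast-like cells were highest in Cox6b2 and Cox8b, though the unnamed cells were higher in Cox6b2. Of the 8 markers that named this class, 7 were called lower in bulk at 3wk Fas+/+, against 19.2% of all genes. At 3wk Fas-/- 5 were lower and 1 higher, against 14.8% and 17.2%. The 1 higher was Plin2, with means of 81.4 CPM in naive libraries and 105 at 3wk Fas-/-. Without the shared barcodes Cox6b2 was at 1.36 and 0.31 and Cox8b at 0.25 and 0.01 in lipofibroblast-like and profibrotic fibroblast-like cells.

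Ndufa4, named for complex I and by now assigned to complex IV, was chosen for this account after its values were seen. It was at 0.21 in pericyte-like cells (77 UMIs, 95% Poisson interval 0.17 to 0.27) and at 2.16 to 5.89 in the other 10 named classes. Pericyte-like cells were low in every library, at 0.12 to 0.25. Their paralog Ndufa4l2 was at 15.8 in pericyte-like cells, 15.4 to 16.8 in the 5 libraries, at 2.74 in vascular smooth muscle-like cells, and at 0.41 or less in the other named classes. Cox4i2, a marker used to name the class, was at 28.2 in pericyte-like and 1.80 in vascular smooth muscle-like cells, and its counterpart Cox4i1 at 4.66 in pericyte-like cells and 4.76 to 7.20 in the other named classes. Without the shared barcodes Ndufa4 stood at 0.22 and Ndufa4l2 at 15.6 in pericyte-like cells.

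**Figure D4:**
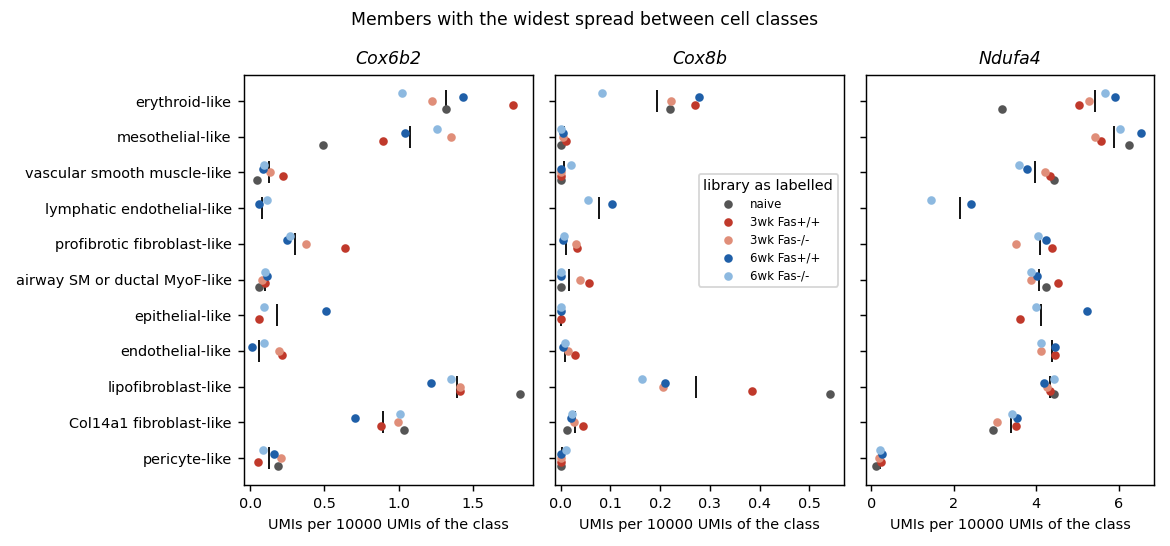
UMIs per 10000 UMIs (x axes) of Cox6b2, Cox8b and Ndufa4 in each single-cell class (y axis), with 1 point per library that holds at least 20 cells of the class and a tick for all libraries together. Among the named classes Cox6b2 and Cox8b are highest in lipofibroblast-like cells with all libraries together, and Ndufa4 is lowest in pericyte-like cells. The unnamed clusters are not shown.

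Among the fibroblast-like classes the members with the widest ratios were compared, over members with at least 100 UMIs in both. From lipofibroblast-like to profibrotic fibroblast-like cells, Cox6b2 (2.19), Atp5s (0.88) and Ndufs7 (0.37) were the most enriched in the former on the log2 scale, and Atp5g2 (-0.80), Uqcrh (-0.57) and Cox5a (-0.54) in the latter, with a median of -0.07 over 76 members. Between Col14a1 fibroblast-like and profibrotic fibroblast-like cells the same measure was highest for Cox6b2 (1.55), Ndufv3 (0.32) and Ndufs7 (0.25) and lowest for Cox5a (-0.69), Ndufa11 (-0.52) and Uqcrq (-0.51). Between Col14a1 fibroblast-like and lipofibroblast-like cells it was highest for Uqcrh (0.45), Cox7a2l (0.42) and Atp5g2 (0.36) and lowest for Cox6b2 (-0.63), Ndufb3 (-0.43) and Ndufc2 (-0.42).

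The bulk changes at 3 weeks were set beside these ratios. Across 76 members, the bulk log2 fold change at 3wk Fas+/+ and the log2 ratio of profibrotic fibroblast-like to lipofibroblast-like cells had a Pearson r of 0.84 and a Spearman rho of 0.69, with the same sign for 62, and r was 0.71 without Cox6b2. Of the 18 called members in this set 17 had the same sign, and Ndufa4 did not. With the ratio of endothelial-like to lipofibroblast-like cells, r was 0.54 and rho 0.55 over 74 members, with the same sign for 52 and for 17 of 17 called members. At 3wk Fas-/- r was 0.80 and rho 0.68 with the first ratio, with the same sign for 60 of 76 members and 9 of 9 called, and 0.43 and 0.36 with the other, with the same sign for 48 of 74 and 8 of 8 called. These are descriptions across genes, which are not independent replicates and share the lipofibroblast-like level in both ratios and the naive libraries in both comparisons. No value over all genes was computed for these correlations or shared signs. The libraries labelled 6wk Fas+/+ and Fas-/- gave 6887770 and 8630374 of 19204494 UMIs in profibrotic fibroblast-like cells. They gave 7444181 and 1195271 of 10784580 in endothelial-like cells and 4854301 and 6135463 of 24454320 in lipofibroblast-like cells. Both ratios thus mix library with class. How much of each bulk difference comes from the mix of cells was not tested.

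**Figure D5:**
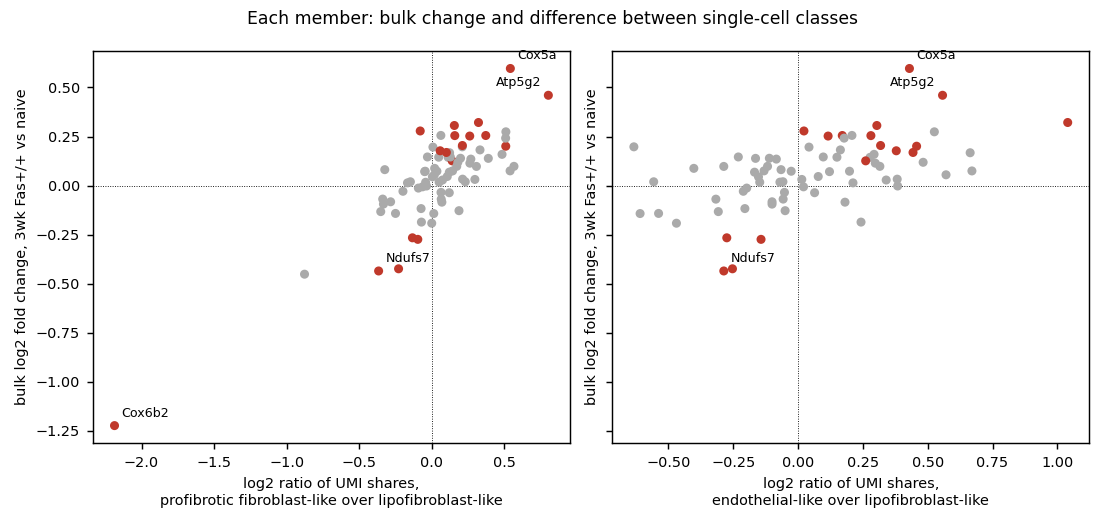
Bulk log2 fold change at 3wk Fas+/+ against naive mice (y axes) and log2 ratio between 2 single-cell classes (x axes) for each member, with called members in red; left, profibrotic fibroblast-like over lipofibroblast-like cells, and right, endothelial-like over lipofibroblast-like cells. Cox6b2 lies at the lower left of the left panel and Cox5a and Atp5g2 at the upper right of both.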

How the data were processed

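Bulk RNA-seq was aligned to GRCm38 with HISAT2 and counted on Ensembl genes with htseq-count by the authors, who deposited raw counts, used here, and counts divided by DESeq2 size factors, a normalized signal that was not used. For single cells the authors deposited the UMI count matrices of Cell Ranger 3.0.2. Reads that map to several places, as for members with pseudogene copies, are not counted by htseq-count.

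The set of members, defined by symbol, and the gene lists were chosen with earlier results of these data known. Members were named by smallest adjusted p in each comparison, by fixed lists of core subunits and isoforms, and by class ratios. Counts were tested in R 4.3.3 with edgeR 4.0.16 (filterByExpr, minimum count 10, TMM, quasi-likelihood F test on all 5 groups, Benjamini-Hochberg adjustment) and with a two-sided exact permutation test of group means, whose smallest p is 0.0286. Alternatives used other edgeR fits and DESeq2 1.42.0. Counts of 15537 genes were simulated for the comparison of 3wk Fas+/+ with naive mice, with few genes changed. There, 97% of 67 log2 changes of 2, 64.1% of 64 changes of 1 and 21.5% of 65 changes of 0.5 were called. Far more genes were called in the real comparison, so the adjustment was stricter in the simulation. These shares are therefore not the power of the real comparison. Labels do not tie libraries to separate animals, so p-values measure the spread between libraries. Replicate numbers are not stated to pair libraries and were no block in the main fit. Barcodes were kept at 200 to 7500 genes and up to 20% mitochondrial UMIs, then clustered in Seurat 5.3.0 (SCTransform, resolution 0.8); no doublet caller was run. Intervals (scipy 1.17.1) cover counting error only.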

Additional observations from a re-analysis of the deposited data

Results flagged for a closer look

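In 13 of 120 sets of 4 libraries, 1 library stood apart from the other 3 by Dixon's test, where chance gives about 1 in 20. Endothelial markers were far above the rest of the group in 3wk Fas+/+ replicate 1 (12120 CPM, others 3292 to 4177), 3wk Fas-/- replicate 4 (10750, others 810 to 1435) and 6wk Fas-/- replicate 2 (3400, others 135 to 552). The same 3wk Fas-/- replicate 4 stood apart for 4 members, with Ndufv2 at 28.5 CPM (others 31.2 to 31.5), Ndufv1 at 73.2 (others 64.6 to 65.3), Sdha at 163 (others 145 to 148) and Sdhb at 49.9 (others 40.9 to 42.2), and for the cardiac muscle markers, at 17.9 (others 28.4 to 29.6).

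Naive replicate 1 stood above its group for Sdha (163 CPM, others 151 to 153) and Atp5a1 (343, others 332 to 333). In 6wk Fas+/+ replicate 1 Cox5b was at 37.7 (others 43.8 to 44.2), and in 6wk Fas-/- replicate 1 Atp5b was at 301.1 (others 330 to 335) and Atp5a1 at 309 (others 332 to 334).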

How the results depend on the processing

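No call of a single member changed direction under any alternative run. Balances did: at 3wk Fas+/+ 13 higher and 6 lower became 4 and 8 with upper quartile scaling, and 4 and 6 with no filter, with only the groups compared, or without naive replicate 1 or 3wk Fas+/+ replicate 3. The members' median for 6 against 3 weeks in Fas+/+ mice went from -0.02 to 0.02 with upper quartile scaling, which moved the median of all genes from 0.00 to 0.04, and to 0.02 without 3wk Fas+/+ replicate 3. The library labelled naive went from the highest to the lowest share of UMIs without a filter on cells and without shared barcodes. Of the calls of single members, 7 of 19 at 3wk Fas+/+, 4 of 10 at 3wk Fas-/- and 4 of 8 for 6 against 3 weeks in Fas+/+ mice held under the 16 alternatives that refit the model; the first 7 were Cox6b2, Cox8b, Ndufb10, Ndufs7, Atp5g2, Cox5a and Ndufv2. With a log2 change of at least 0.5 also required 3, 2 and 2 held, which were Cox6b2 and Cox8b in each and Cox5a at 3wk Fas+/+.

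The number of members called at 3wk Fas+/+ (19) was 3 with a log2 change of at least 0.5 required (1 higher and 2 lower, against 15.3% and 11.4% of all genes), 12 with upper quartile scaling, 10 with no filter on low counts, 12 with the endothelial covariate, 34 without the 4 libraries highest in endothelial markers, 10 with only the groups compared, and 10 to 34 with 1 library left out. With only the groups compared at 3wk Fas+/+, 2539 and 2297 of 14832 genes were called higher and lower. At 3wk Fas-/- (10) the number of members called was 2 with the size limit, 16 without the 4 libraries and 7 to 12 with 1 library left out. All genes called higher and lower were 1896 and 1345 of 15773 with the size limit and 3214 and 2973 of 15846 without the 4 libraries. They were 1989 and 2171 of 16044 for the 7 members and 2327 and 2400 of 16011 for the 12. At 6wk Fas+/+ (0) the number of members called was 1 with the covariate, without the 4 libraries, with only the groups compared and with DESeq2, and 0 to 1 with 1 library left out. In the same order, all genes called were 568 and 262 of 15773, 1001 and 524 of 15846, 966 and 629 of 14908, and 858 and 565 of 15703. They were 681 and 315 of 16029 where 1 library left out gave 1 member. For 6 against 3 weeks in Fas+/+ mice (8) the number of members called was 2 with the size limit, 5 with no filter, 5 with only the groups compared, 16 without the 4 libraries and 4 to 17 with 1 library left out, the 17 without 3wk Fas+/+ replicate 1. In the order of the first 4 settings, all genes called were 1128 and 1041 of 15773, 1516 and 1319 of 28881, 1428 and 1445 of 14950, and 2826 and 3037 of 15846. Without 3wk Fas+/+ replicate 1 they were 2574 and 2305 of 16013, and without 3wk Fas+/+ replicate 3, with 4 members, 1331 and 1167 of 16026. For 6 against 3 weeks in Fas-/- mice (0) the number of members called was 3 with upper quartile scaling, 2 with the covariate, 3 without the 4 libraries, 1 with only the groups compared, 2 with DESeq2 and 0 to 1 with 1 library left out. In the order of the first 5 settings, all genes called were 866 and 581 of 15773, 668 and 888 of 15773, 1122 and 1528 of 15846, 585 and 573 of 14711, and 988 and 1094 of 15703. They were 697 and 759 of 16052 where 1 library left out gave 1 member. Between genotypes at 3 weeks (0) the number of members called was 1 without the 4 libraries, against 542 and 747 of 15846 genes. The cause of these shifts was not tested.

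Same-numbered libraries did not deviate together on average, with a mean correlation of 0.008 between their deviations. The correlations were positive for every number between naive and 6wk Fas-/- (0.0907 to 0.228) and between 6wk Fas+/+ and 6wk Fas-/- (0.0122 to 0.403). In every other pair of groups they had both signs, down to -0.464. With a replicate block the counts were 12 higher and 6 lower at 3wk Fas+/+, 4 and 6 at 3wk Fas-/-, 0 and 1 at 6wk Fas-/-, and 4 and 3 for 6 against 3 weeks in Fas+/+ mice. In the same order, all genes called of 15773 were 3313 and 2979, 2487 and 2271, 494 and 421, and 1840 and 1559.

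Members' shares of UMIs per library, in the order naive, 3wk Fas+/+, 3wk Fas-/-, 6wk Fas+/+ and 6wk Fas-/-, were 1.89%, 1.84%, 1.81%, 1.80% and 1.77% of UMIs outside mitochondrial, ribosomal protein and globin genes, 1.48%, 1.53%, 1.52%, 1.55% and 1.52% without a filter on cells, 1.497%, 1.495%, 1.57%, 1.45% and 1.43% as the mean of cells, and 1.43%, 1.54%, 1.54%, 1.53% and 1.52% without shared barcodes, an alternative chosen after seeing the data. At resolution 0.4 endothelial-like cells were at 1.55%, erythroid-like at 2.01% and lipofibroblast-like at 1.45%. Without shared barcodes airway smooth muscle or ductal myofibroblast-like cells were at 1.57%, epithelial-like at 1.52%, erythroid-like at 2.15%, lipofibroblast-like at 1.47%, lymphatic endothelial-like at 1.60%, mesothelial-like at 1.93%, pericyte-like at 1.36%, profibrotic fibroblast-like at 1.57% and vascular smooth muscle-like at 1.88%.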
